A study of Mus musculus with 117 samples.

Results

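The expression of 42 genes of cell division was followed in mouse tumours and in normal cells sorted from mouse tissues. They were chosen for their known roles and not for their values here: 18 act at the passage from G1 into S phase and in DNA replication (called G1/S genes below), and 24 act in G2 and mitosis (G2/M genes). An array probe set annotated to a single gene was found for 41 of them, out of 17097 genes so annotated, which left 18 G1/S and 23 G2/M genes. The gene without such a probe set was Ccnb1, which encodes cyclin B1, so its close relative Ccnb2 was followed in its place; that choice was made after values had been seen.

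The series holds 117 samples of C57BL/6 mice measured on Affymetrix arrays, and its design text speaks of conditional mutants of Prom1 that developed tumours. The labels do not give the alleles, driver or age of any single animal. Prom1 encodes prominin 1 (CD133), a cell surface glycoprotein that marks stem and progenitor cells in several tissues. The 66 tumours were 10 prostatic adenocarcinomas, 14 bronchial papillary adenomas, 13 hepatocellular carcinomas, 11 gastric adenocarcinomas, 9 uterine adenocarcinomas, 3 B-cell lymphomas and, from skin, 6 squamous cell carcinomas. They were frozen as pieces of whole tissue. The 51 normal samples were cells dissociated from tissue and separated with anti-Prom1 beads into 20 Prom1-positive and 31 Prom1-negative samples. Positive and negative samples numbered 3 and 5 for prostate, 3 and 7 for lung, 3 and 5 for intestine, 4 and 7 for liver, 3 and 4 for stomach, and 4 and 3 for uterus. Tumour and normal samples therefore differ in tissue handling as well as in disease, and these cannot be told apart here. In bulk RNA, fewer cells of a type and less RNA per cell cannot be told apart either. Whether each sample of a group is a different animal is not stated, and p-values then reflect only how far these samples vary. The spread behind a p-value was pooled over all groups of its fit, other tissues and tumours included.

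A cell that is to divide first releases E2F transcription factors, whose targets include the cyclin E genes and the machinery that licenses and copies DNA. The DREAM complex keeps the genes of G2 and mitosis off in resting cells through an element called the cell cycle genes homology region (CHR), and the same element takes part in their later activation by B-MYB and FOXM1. In adult tissues the crypts of the intestine and the glands of the stomach renew all the time, whereas most hepatocytes and prostatic epithelial cells rest.

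The promoters of 4 of the genes are shown because they carry these elements in different combinations: a mitotic cyclin, the mitotic kinase, a subunit of the replication helicase, and a G1 cyclin in which none of the searched letters was found. Each runs 5′ to 3′ on the gene's own strand, from 250 bases before to 50 bases after the annotated start (RefSeq, GRCm38.p6). Capitals mark matches to CHR, CCAAT or E2F letters on either strand.
Ccnb2, chr9:70421505-70421804, minus strand: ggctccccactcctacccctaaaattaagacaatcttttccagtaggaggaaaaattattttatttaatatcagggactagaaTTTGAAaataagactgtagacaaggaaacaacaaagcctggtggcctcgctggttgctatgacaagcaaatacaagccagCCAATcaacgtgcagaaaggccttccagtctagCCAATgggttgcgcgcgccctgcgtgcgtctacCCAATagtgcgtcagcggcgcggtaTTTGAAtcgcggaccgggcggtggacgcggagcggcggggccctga
Cdk1, chr10:69352863-69353162, minus strand: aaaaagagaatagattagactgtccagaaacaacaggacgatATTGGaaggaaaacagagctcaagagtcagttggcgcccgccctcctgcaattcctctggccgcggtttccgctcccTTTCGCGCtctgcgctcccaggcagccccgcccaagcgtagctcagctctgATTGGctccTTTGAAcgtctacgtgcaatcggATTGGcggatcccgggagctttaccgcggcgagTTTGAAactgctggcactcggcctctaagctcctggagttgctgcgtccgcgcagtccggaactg
Mcm5, chr8:75109259-75109558, plus strand: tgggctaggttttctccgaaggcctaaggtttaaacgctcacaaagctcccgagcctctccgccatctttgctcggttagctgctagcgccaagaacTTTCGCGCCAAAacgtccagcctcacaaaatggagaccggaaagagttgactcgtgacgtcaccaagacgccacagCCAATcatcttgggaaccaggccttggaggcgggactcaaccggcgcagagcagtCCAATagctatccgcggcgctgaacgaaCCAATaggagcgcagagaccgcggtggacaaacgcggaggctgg
Ccne1, chr7:38107441-38107740, minus strand: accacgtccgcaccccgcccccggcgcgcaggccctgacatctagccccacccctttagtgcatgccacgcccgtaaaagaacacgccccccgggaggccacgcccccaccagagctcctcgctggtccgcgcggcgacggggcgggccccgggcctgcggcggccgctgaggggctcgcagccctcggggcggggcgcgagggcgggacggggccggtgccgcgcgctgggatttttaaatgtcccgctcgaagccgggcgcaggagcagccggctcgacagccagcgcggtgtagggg

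Promoters of 34 of the genes were in the RefSeq table, 15 of G1/S and 19 of G2/M genes. The CHR was searched as TTTGAA and in a variant form, TTCGAA. The TTTGAA form was present in 13 of the 19 G2/M promoters (68.4%), in 1 of the 15 G1/S promoters (6.67%) and in 18.1% of all 27025 promoters of that length. The variant was in 3 of the G2/M promoters (15.8%), 1 of the G1/S promoters and 1.57% of all. The CCAAT box, bound by NF-Y, was in 17 G2/M promoters (89.5%), 9 G1/S promoters (60%) and 37.9% of all. E2F letters were searched in 4 spellings, TTTGGCGC, TTTCCCGC, TTTGCCGC and TTTCGCGC. They were in 1 of 19 G2/M promoters (5.26%), that of Cdk1, in 6 of 15 G1/S promoters (40%) and in 2.32% of all. In the Mcm5 promoter 2 E2F matches on opposite strands overlap and are counted as a single promoter. A match describes the letters in this window and was not tied to binding.

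Across the samples the group means of the G2/M genes ran from Prom1-positive liver cells and prostate cells at the low end to B-cell lymphoma at the top (plot of phase means by sample). All values are log2 probe set signals, on which a difference of 1 is a factor of 2. Levels of different genes are not compared, because each probe set has its own response. The array medians lay between 3.63 and 4.01, and the upper quartiles between 5.05 and 6.53. In 6 sorted samples the upper quartile was under 6: 1 of lung, 2 of liver and 3 of stomach. Markers of the labelled tissue averaged 8.67 or more in every lung, liver, intestine and stomach sample of sorted cells, in prostate cells, and in the liver, lung and skin tumours. They ran from 4.35 to 11.18 in prostatic and from 3.57 to 10.19 in gastric adenocarcinomas, and from 3.13 to 6.28 in uterine adenocarcinomas, against 5.64 to 6.68 in uterus cells. Markers of another organ were high in 3 tumours: lung markers in hepatocellular carcinomas 1 (9.19) and 8 (8.08), and liver markers in uterine adenocarcinoma 6 (9.47).

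**Figure D1:**
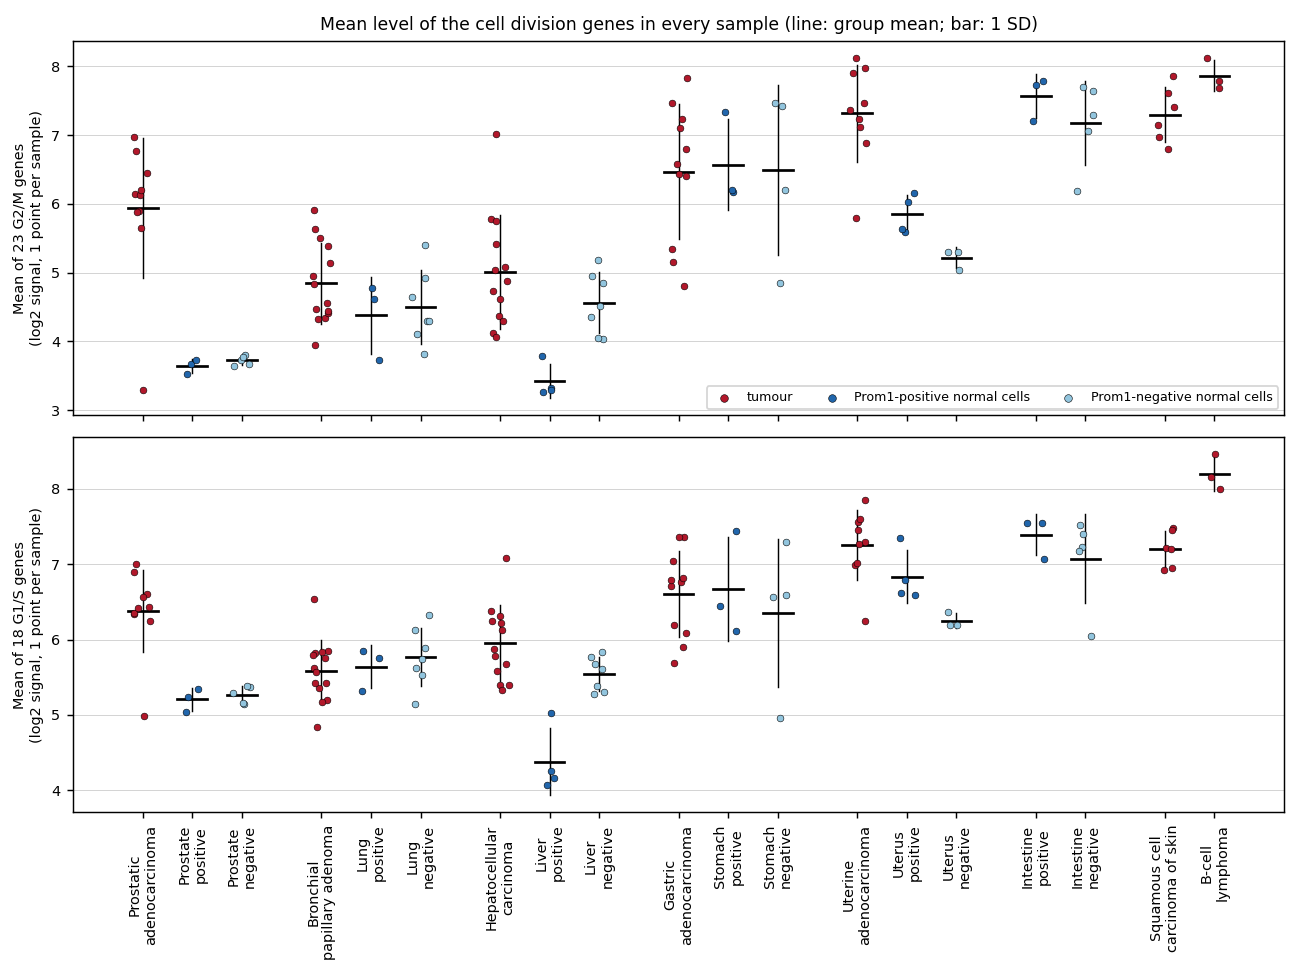
Mean log2 signal of the 23 G2/M genes (upper panel) and the 18 G1/S genes (lower panel) in each of the 117 samples, with tumours left of the Prom1-positive and Prom1-negative cells of their organ. Horizontal lines are group means and vertical bars 1 SD. B-cell lymphoma and intestine lie high in both panels, and liver and prostate cells low.

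In normal cells the level of these genes differed between tissues, as it did for most genes. A test of any difference between the 6 tissues, over the mean of both sorted fractions, called all 41 genes, with adjusted p from 1.11e-18 for Aurka to 0.0355 for E2f1. That test called 90.1% of all genes, so the count is near the background and says nothing particular to these genes. The G2/M mean was 7.57 ± 0.32 (SD, n = 3) in Prom1-positive and 7.18 ± 0.62 (n = 5) in Prom1-negative intestine. It was 6.57 ± 0.66 (n = 3) and 6.49 ± 1.24 (n = 4) in positive and negative stomach, and 5.85 ± 0.28 (n = 4) and 5.22 ± 0.15 (n = 3) in positive and negative uterus. Lung had 4.38 ± 0.56 (n = 3) in positive and 4.50 ± 0.53 (n = 7) in negative cells. At the low end stood liver, with 3.42 ± 0.25 (n = 4) in positive and 4.56 ± 0.45 (n = 7) in negative cells, and prostate, with 3.64 ± 0.10 (n = 3) in positive and 3.73 ± 0.07 (n = 5) in negative cells. Neighbouring tissues in this order overlapped in their samples at every step, whereas intestine and uterus did not overlap, nor did uterus and prostate. Prom1-positive intestine had the highest mean of the 12 sorted groups for 33 of the 41 genes, and Prom1-positive liver the lowest for 22. Mki67, which encodes the chromosome coat protein Ki-67, had 8.91, 9.50 and 9.60 in positive intestine, against 9.42, 9.16, 8.85, 8.25 and 9.49 in negative intestine. The 2 sets overlap, and the negative samples reach lower.

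Prom1-positive and Prom1-negative cells were compared within each tissue. Over the mean of the 6 tissues 1 of 41 genes fell in positive cells, Cdt1, whose product loads the replicative helicase, by 0.52 (SE 0.18, adjusted p 0.0462), where 8.56% of all genes were called lower. Mki67 had a difference of -0.43 (adjusted p 0.185) and Mcm5 of 0.11 (adjusted p 0.706). The call for Cdt1 was lost without most single samples, where between 0 and 4 genes were called. The effect of the sort differed between tissues for 15 genes, 9 G1/S and 6 G2/M, in a test that called 21.2% of all genes. The count was 8 without Prom1-positive liver replicate 3, 24 without the Prom1-negative stomach sample of lowest upper quartile, and 2 with a replicate block. The 15 include Ube2c (adjusted p 5.4e-05), Cdt1 (adjusted p 0.000298), Mcm6 (adjusted p 0.000779) and Mki67 (adjusted p 0.00197).

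Liver was where the sort moved most of these genes. In positive liver cells 21 of the 41 genes fell and none rose, while 16.5% of all genes were called lower, and all 41 differences were below 0. The median difference was -1.06, against -0.12 over all genes tested. Of the G1/S genes 11 of 18 fell. They comprise the 6 helicase subunits Mcm2 to Mcm7, the loader Cdt1, and Pcna, Rrm1, Tyms and Uhrf1, which act in DNA synthesis, its precursors and its methylation. The G1 cyclins and transcription factors did not pass: Ccne1 had a difference of -0.33 (adjusted p 0.642) and E2f1 of -0.28 (adjusted p 0.555). Of the G2/M genes 10 of 23 fell. They comprise Cdk1 with its cyclins Ccna2 and Ccnb2, the checkpoint genes Bub1b and Mad2l1, the kinetochore motor Cenpe, Birc5 (survivin, of the chromosomal passenger complex), Ube2c, Mki67 and Top2a. The kinases Plk1, Aurka, Aurkb and Nek2 had differences between -0.35 and -0.63 and did not pass. Aurka passed without Prom1-positive replicate 2 (-0.92, adjusted p 0.0193) and when the arrays with upper quartiles below 6 were dropped (-0.91, adjusted p 0.0407). Only 8 of the 41 genes were above the array median in every positive liver sample, and 25 in every negative one. The part of low signal in which genes passed was not tested.

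Ube2c, the conjugating enzyme of the anaphase-promoting complex, had 3.55, 3.48, 3.09 and 2.85 in positive liver cells, against 5.15 at lowest, 6.44 at the median and 8.77 at highest in the 7 negative samples. The groups did not overlap, and the difference was -3.61 (SE 0.51, 95% interval -4.63 to -2.58, adjusted p 1.6e-06). Mki67 had 4.14, 3.02, 3.65 and 3.56 in positive cells, against 5.09, 6.19 and 7.49 (lowest, median, highest) in negative cells. All positive samples lay below all negative ones here too, with a difference of -2.72 (SE 0.46, 95% interval -3.65 to -1.78, adjusted p 3.31e-05). Ccnb2 had 3.45, 3.44, 3.39 and 3.17 in positive cells, against 4.01, 4.72 and 5.96 in negative cells, a difference of -1.53 (SE 0.47, adjusted p 0.015). Mcm5 had 4.23, 3.41, 4.24 and 4.22 in positive cells, against 4.69, 5.22 and 5.48 in negative cells. Its difference of -1.10 (SE 0.36, adjusted p 0.023) lost its call without the positive sample at 3.41 (adjusted p 0.143), and also under the 4 other settings named with it under the processing. Cdt1 differed by -2.64 (adjusted p 2.85e-06), Top2a, the topoisomerase that untangles sister chromatids, by -2.20 (adjusted p 0.000502), and Rrm2, the small subunit of ribonucleotide reductase, by -1.03 (adjusted p 0.156).

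Markers of other cells moved with the sort in liver. All 11 T and NK cell markers fell in positive cells, with a mean level of at most 3.6 in positive against 6.37 to 8.49 in negative samples. So did 6 of 9 B cell markers (3.89 to 4.55 against 4.91 to 6.83), 8 of 10 macrophage markers (7.32 to 10.18 against 10.29 to 11.05) and 6 of 9 endothelial markers (6.07 to 10.38 against 9.16 to 10.22). The hepatocyte markers averaged 11.68 ± 0.79 in positive and 11.27 ± 0.85 in negative cells (SD, n = 4 and 7). The 3′ minus 5′ signal of Actb, a sign of RNA integrity, was 1.54 ± 0.19 in positive and 0.61 ± 0.13 in negative cells. The upper quartiles of the arrays were 5.96 to 6.02 in positive and 6.08 to 6.41 in negative cells. The part of these cells, of RNA quality and of array signal in the lower levels was not tested. Among other genes of the cycle, 16 of 36 replication genes fell in positive liver cells, where 16.5% of all genes were called lower. They include Rfc4 at -1.76 and Lig1 at -1.72. Of 38 further mitotic genes 7 fell, near that share, including Smc2 at -2.45 and Cenpa at -2.03. Of 11 drivers of G1, Ccnd2 at -2.06, Ccnd1 at -1.43 and 1 more fell. Of 14 genes that restrain the cycle 6 fell, including Rbl1 at -2.27 and Cdkn2c at -1.59, so genes of both kinds were lower.

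In uterus the only gene called was Aurka, which encodes the centrosomal kinase Aurora A. It had 5.57, 4.96, 5.04 and 5.56 in positive cells, against 3.73, 3.51 and 4.25 in negative cells. The groups did not overlap, and Aurka rose by 1.46 (SE 0.41, 95% interval 0.63 to 2.28, adjusted p 0.0128), where 5.31% of all genes were called higher. The call was lost when quantile normalization was repeated (adjusted p 0.0865), with a replicate block (0.128), and without negative replicate 1 (0.0661) or 2 (0.0892). With uterus samples fitted alone more genes were called, as given under the processing. Differences in the joint fit of all sorted samples were above 0 for 39 of 41 genes, with a median of 0.63 against 0.03 over all genes. Mki67 had a difference of 0.71 (adjusted p 0.59) and Mcm5 of 0.91 (adjusted p 0.213). In the same samples 8 of 10 macrophage markers rose, with a mean level of 11.17 to 11.7 in positive against 7.88 to 8.38 in negative cells, 5 of 10 fibroblast markers fell and 5 of 11 T and NK cell markers fell. Their part in the result was not tested. Of the other mitotic genes 3 of 38 rose, including the separase gene Espl1 at 1.61 (adjusted p 0.00593) and Racgap1 at 1.44 (adjusted p 0.0199), while the inhibitor gene Cdkn1c fell by 1.91 (adjusted p 0.0166).

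No gene was called in prostate, lung, intestine or stomach in the joint fit, where 9.19%, 1.51%, 0.199% and 3.17% of all genes were called in either direction. Prostate samples fitted alone gave some calls, as listed under the processing. In positive prostate cells Ube2c had a difference of -1.72 (adjusted p 0.0592), with no overlap between the groups. The difference of Mki67 was -0.85 (adjusted p 0.41) in prostate, 0.24 (adjusted p 0.985) in lung and -0.30 (adjusted p 0.864) in stomach. In intestine Mki67 had 0.30 with a 95% interval of -0.78 to 1.39 (adjusted p 1), so a change of the size seen in liver lies outside that interval. For intestine 36 of 41 differences were above 0, with a median of 0.43 and no call.

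**Figure D2:**
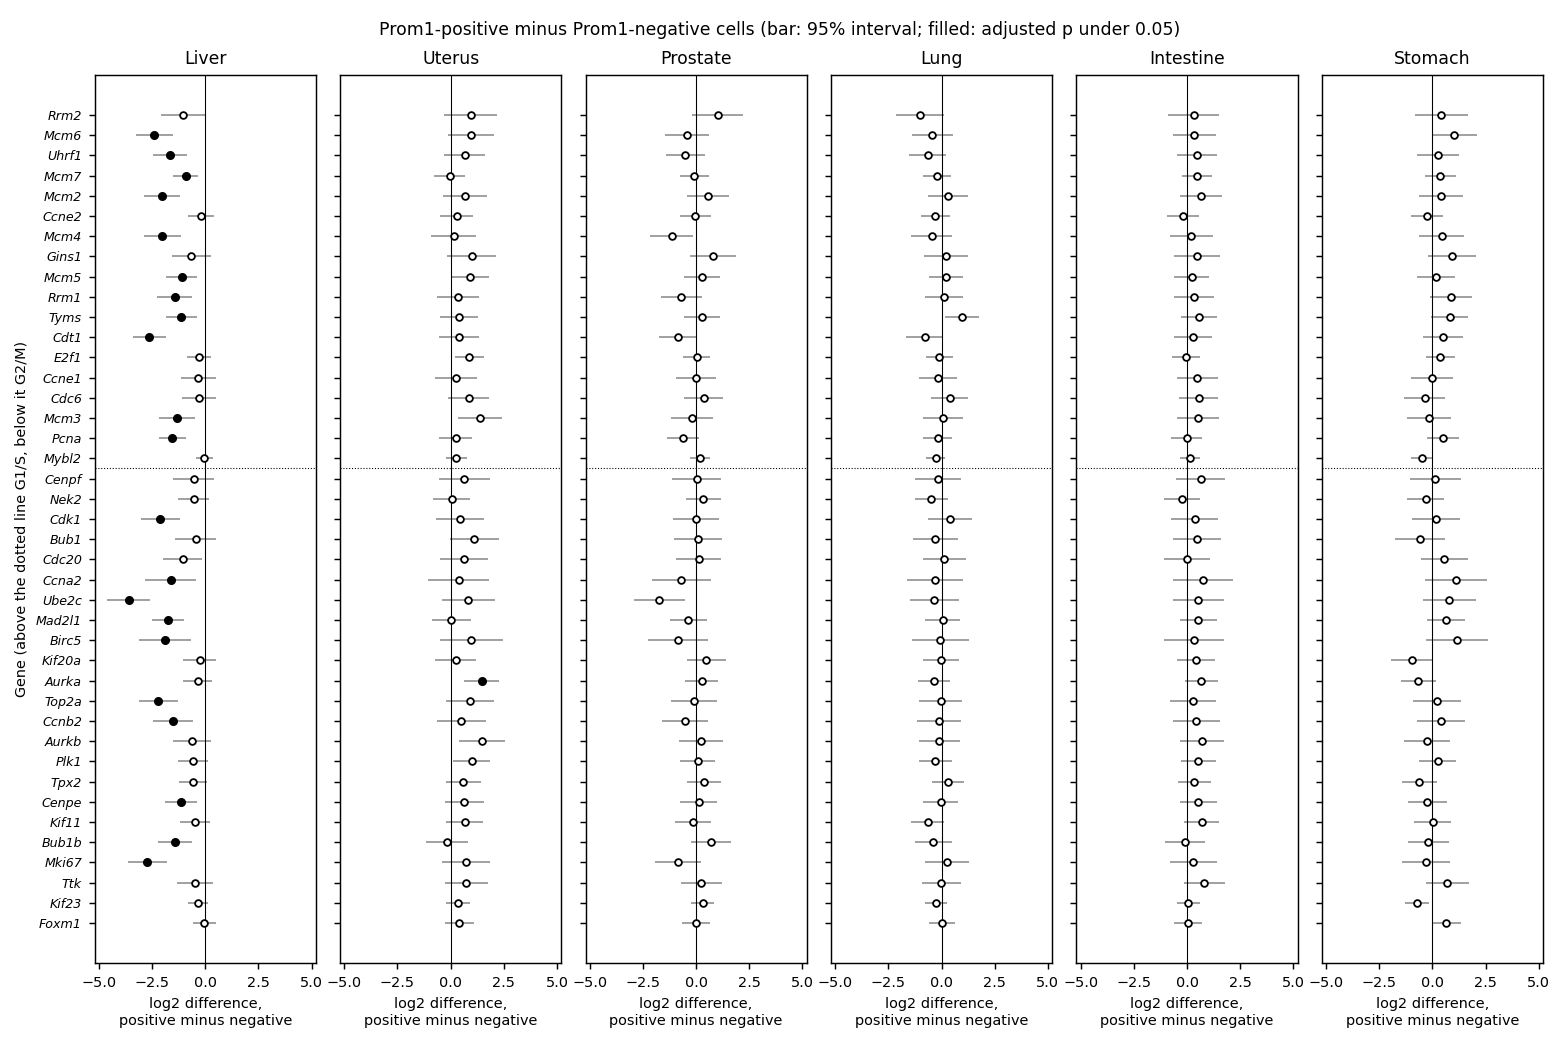
Log2 difference of each of the 41 genes between Prom1-positive and Prom1-negative cells, with 95% intervals, in 6 tissues. Filled points have an adjusted p under 0.05: 21 genes in liver, all to the left of 0, Aurka in uterus, and none in the other tissues.

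Tumours were next set against normal cells of the same organ, taking as the normal level the mean of the positive and negative groups. Averaged over 5 organs, 36 of 41 genes rose and none fell, where 39% of all genes were called higher. All 23 G2/M genes rose, with a median difference of 1.15, and 13 of 18 G1/S genes, with a median of 0.47, against 0.08 over all genes. The largest rises were in Cenpf, a kinetochore protein, at 1.5 (SE 0.19, adjusted p 5.23e-11), Nek2, a centrosomal kinase, at 1.47 (SE 0.15, adjusted p 2.33e-14), and Cdk1 at 1.44 (adjusted p 1.16e-09). Mki67 rose by 0.80 (SE 0.18, adjusted p 7.95e-05), Top2a by 1.15 (adjusted p 3.64e-08), Ccnb2 by 1.12 (adjusted p 3.77e-07), Rrm2 by 1.19 (adjusted p 8.48e-08) and Mcm5 by 0.50 (adjusted p 0.00316). The call of Mcm5 was lost with the mean of all its probe sets (0.17, adjusted p 0.077) and against Prom1-positive cells alone (0.46, adjusted p 0.0533). That mean takes in a second Mcm5 probe set, which averaged 2.72 and was above the array median in 0 of the 117 arrays. The 5 genes that did not pass were all G1/S genes: Ccne1 at 0.21 (adjusted p 0.168), Cdc6 at 0.15, Mcm3 at 0.11, Pcna at 0.03 and Mybl2 at 0.02. The means over organs hide large differences between them. The tumour effect differed between organs for 40 of 41 genes, all but Ccne2 (adjusted p 0.0863), in a test that called 77.9% of all genes. The probe set of Ccne2 was dim, above the array median in 41 of the 117 arrays.

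The change was widest in prostate. There 33 of 41 genes rose in adenocarcinomas, 12 of 18 G1/S genes and 21 of 23 G2/M genes, where 20.9% of all genes were called higher. The medians were 1.13 for G1/S and 2.19 for G2/M genes. Cdk1, the kinase that drives entry into mitosis, had 2.92 at lowest, 8.23 at the median and 8.82 at highest in the 10 adenocarcinomas, against 3.65, 4.18 and 4.53 in positive and 3.57, 4.16, 4.63, 3.96 and 4.27 in negative prostate cells. It rose by 3.59 (SE 0.47, 95% interval 2.66 to 4.51, adjusted p 4.48e-10). Mki67 had 3.08, 7.74 and 8.61 (lowest, median, highest) in adenocarcinomas, against 4.31, 4.13 and 3.65 in positive and 3.44, 4.27, 5.80, 5.65 and 5.23 in negative cells. It rose by 3.0 (SE 0.42, adjusted p 4.99e-09). The overlap in both genes came from a single tumour, prostatic adenocarcinoma 10, and the other 9 lay above every normal sample. In that tumour the mean of the G2/M genes was 3.29, against 5.65 to 6.97 in the other 9. Its markers of prostate epithelium averaged 10.52, against 11.18 in adenocarcinoma 9 and 4.35 to 7.71 in the rest. Adenocarcinoma 9 had a G2/M mean of 6.20. The general epithelial markers of adenocarcinoma 10 averaged 10.57, against 10.66 to 11.14 in the others. The cyclin A gene Ccna2 rose by 3.49 (adjusted p 7.82e-10) and Birc5 by 3.17 (adjusted p 1.38e-07). Ccnb2 rose by 2.79 (adjusted p 2.3e-07), Top2a by 3.03 (adjusted p 3.62e-09) and Mcm5 by 1.80 (adjusted p 2.46e-05), whereas Rrm2 at 0.72 (adjusted p 0.211), Ccne1 at 0.31 (adjusted p 0.469) and Pcna at 0.00 (adjusted p 0.998) did not pass. Without adenocarcinoma 10 Rrm2 had 1.04 and just passed (adjusted p 0.04999). Groups did not overlap for Mad2l1, Mcm2, Mcm6, Mcm7 and Tpx2. The share of all genes without overlap was not counted, so this says nothing particular to these genes. General epithelial markers averaged 10.57 to 11.14 in adenocarcinomas, against 9.88 to 9.99 in positive and 8.84 to 9.87 in negative cells, and 6 of 11 rose. All 4 markers of prostate epithelium, 7 of 11 T and NK cell markers and 6 of 9 B cell markers fell. The part of these markers was not tested.

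In uterus 31 genes rose in adenocarcinomas, 9 of 18 G1/S genes and 22 of 23 G2/M genes, where 16.4% of all genes were called higher. The G2/M gene that did not pass was the checkpoint gene Mad2l1, at 0.22 (adjusted p 0.694). Aurka had 5.04 at lowest, 7.33 at the median and 8.02 at highest in the 9 tumours, against 4.96 to 5.57 in positive and 3.51 to 4.25 in negative cells. Only the lowest tumour fell within the range of normal cells. Aurka rose by 2.60 (SE 0.41, adjusted p 2.48e-07), Cenpf by 2.39 (adjusted p 2.29e-05) and Ube2c by 2.39 (adjusted p 0.000107). The tumours' Mki67 ran from 7.64 over 8.80 to 9.57, against 8.06, 7.32, 7.82 and 8.17 in positive and 7.24, 7.58 and 6.58 in negative cells. It rose by 1.33 (adjusted p 0.015), Top2a by 1.5 (adjusted p 0.00579), Ccnb2 by 1.53 (adjusted p 0.00803), Rrm2 by 1.90 (adjusted p 0.000908) and Mcm5 by 1.04 (adjusted p 0.0281), and Ccne1 had 0.52 (adjusted p 0.263). The call of Mcm5 was lost without any of 4 normal samples in turn (adjusted p 0.0504 to 0.0878). In the adenocarcinomas 6 of 10 fibroblast markers and 4 of 10 macrophage markers fell; their part was not tested. Against Prom1-positive cells alone 17 genes rose, and Mki67 at 0.98 (adjusted p 0.187), Top2a at 1.05 (adjusted p 0.150) Rrm2 at 1.43 (adjusted p 0.0536) and Mcm5 at 0.58 (adjusted p 0.405) no longer passed. Without adenocarcinoma 6, which carried liver markers, 31 genes rose. Shares of all genes called in these repeats are not given.

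In liver 29 genes rose in hepatocellular carcinomas, 13 of 18 G1/S and 16 of 23 G2/M genes, where 29.2% of all genes were called higher. Replication genes led. Rrm2 had 4.57 at lowest, 6.53 at the median and 7.94 at highest in the 13 carcinomas, against 3.81, 3.69, 3.59 and 3.32 in positive cells and 4.06, 4.39 and 5.76 (lowest, median, highest) in negative cells. The carcinomas lay above all positive cells and partly overlapped negative ones. Rrm2 rose by 2.53 (SE 0.39, adjusted p 5.66e-08), Mcm6 by 2.16 (adjusted p 1.11e-10) and Cdt1 by 2.01 (adjusted p 2.31e-11). Mki67 rose by 1.33 (adjusted p 0.00149), Top2a by 1.25 (adjusted p 0.00282), Ccnb2 by 1.32 (adjusted p 0.00317) and Ccne1 by 1.0 (adjusted p 0.00173), and Mcm5 had 0.55 (adjusted p 0.142). This comparison shares its normal samples with the liver sort, and the choice of normal cells decided much of it. Against negative cells alone 11 genes rose and 2 fell, and Mki67 had a difference of -0.02 (adjusted p 0.975), Top2a of 0.15 (adjusted p 0.817) and Ube2c of 0.12 (adjusted p 0.883). Against positive cells alone 31 genes were called, among them Mcm5 at 1.10 (adjusted p 0.0301). Shares of all genes called against either fraction alone are not given, so these counts are not set against a background. All 11 T and NK cell markers, 7 of 9 B cell markers and all 9 endothelial markers fell in the carcinomas and 8 of 11 epithelial markers rose; their part was not tested. Without the carcinomas that carried lung markers, numbers 1 and 8 in turn, 25 and 28 genes rose.

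Bronchial papillary adenomas differed little from lung cells in these genes. In them 3 genes rose, where 23.4% of all genes were called higher, and 3 fell, where 19.7% were called lower. Both counts were under those shares. The 3 that rose act in the spindle checkpoint: Bub1b at 1.12 (adjusted p 0.00142), Bub1 at 0.94 (adjusted p 0.0415) and Mad2l1 at 0.74 (adjusted p 0.0288). The 3 that fell act in replication: Cdt1 at -0.90 (adjusted p 0.00199), Pcna, the sliding clamp, at -0.85 (adjusted p 4.58e-05) and Mcm3 at -0.70 (adjusted p 0.0469). Pcna had 10.09 at lowest, 10.53 at the median and 10.93 at highest in the 14 adenomas, against 11.16, 11.15 and 11.44 in positive cells and 11.19 to 11.95 in negative cells, with no overlap. Mki67 had 5.13, 6.59 and 7.94 (lowest, median, highest) in adenomas, against 5.26, 7.90 and 8.33 in positive cells and 5.98, 6.56 and 7.94 in negative cells, a difference of -0.41 (adjusted p 0.415). Markers of T and NK cells (11 of 11), B cells (7 of 9), macrophages (7 of 10), endothelium (8 of 9) and fibroblasts (8 of 10) fell in the adenomas, and 10 of 11 epithelial markers rose; their part was not tested. With lung samples fitted alone, 6 genes rose and 5 fell. Against positive cells alone 1 rose and 1 fell, and Cdt1 (adjusted p 0.333) and Mad2l1 (adjusted p 0.205) did not pass. Shares of all genes called in these repeats are not given. Mad2l1 also lost its call with repeated quantile normalization (adjusted p 0.0501), without negative replicate 2 (0.0570) and without positive replicate 1 (0.0733).

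In stomach the genes moved both ways. In gastric adenocarcinomas 4 rose, where 35% of all genes were called higher, and 3 fell, where 23% were called lower. Those that rose were the helicase subunit Mcm4 at 1.37 (adjusted p 4.44e-05), E2f1 at 0.88 (adjusted p 0.000107), the cytokinetic motor Kif23 at 0.86 (adjusted p 0.00597) and Nek2 at 0.82 (adjusted p 0.0447). Those that fell were Mki67 at -1.27 (SE 0.42, adjusted p 0.00729), the checkpoint kinase Ttk at -1.03 (adjusted p 0.011) and Tyms, the thymidylate synthase, at -0.95 (adjusted p 0.0021). Mki67 had 6.13 at lowest, 7.98 at the median and 9.02 at highest in the 11 adenocarcinomas, against 9.13, 8.76 and 8.69 in positive and 8.73, 8.41, 9.75 and 9.75 in negative cells. Against positive cells alone Mki67 had -1.12 (adjusted p 0.0985) and did not pass. Mcm4 had 7.32 to 8.93 in adenocarcinomas, against 8.29, 6.10 and 7.14 in positive and 7.38, 4.27, 7.20 and 8.13 in negative cells. The lowest of these, 4.27, is the negative sample whose upper quartile of 5.05 was the lowest of all 117 arrays. Without that sample 3 genes rose and 7 fell. Dropping all arrays whose upper quartile was under 6 left only replicate 1 of the positive stomach cells. Its G2/M mean was 7.34, against 6.17 and 6.20 in the replicates dropped, so counts from that repeat are not given. When quantile normalization was repeated 3 rose and 6 fell. In the adenocarcinomas all 10 macrophage markers, 7 of 10 fibroblast markers and 6 of 9 endothelial markers rose. The 3′ minus 5′ signal of Actb was 0.57 ± 0.14 in adenocarcinomas (n = 11), against 1.22 ± 0.26 in positive and 1.44 ± 0.34 in negative cells (SD, n = 3 and 4). The part of these was not tested. Mcm5 had a difference of -0.72 (adjusted p 0.0814), which passed without the sample of lowest upper quartile (-0.96, adjusted p 0.0213). Ccne1 had a difference of -0.59 (adjusted p 0.104), Ccnb2 of -0.37 (adjusted p 0.497), Top2a of 0.10 (adjusted p 0.855) and Rrm2 of 0.63 (adjusted p 0.226).

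**Figure D3:**
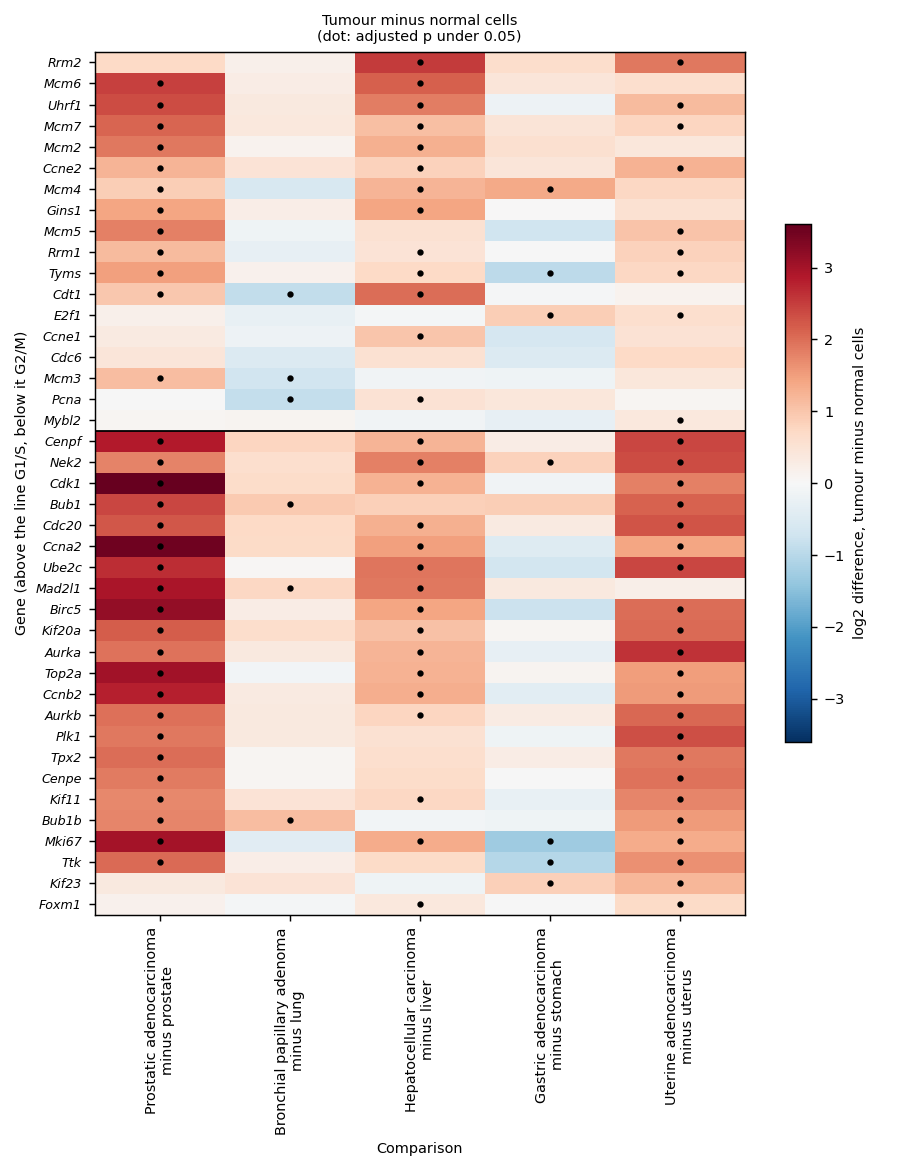
Log2 difference between tumours and normal cells of the same organ for the 41 genes (rows) in 5 organs (columns), red for higher in tumours and blue for lower. Dots mark an adjusted p under 0.05, which 33 genes reached in prostate, 29 in liver and 31 in uterus, all higher, against 3 higher and 3 lower in lung and 4 higher and 3 lower in stomach.

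Other genes of the cycle, from lists that are not part of the 42, gave these counts over the mean of the 5 organs. There 39% of all genes were called higher. Of 36 replication genes 25 rose, led by Hells at 1.5 (adjusted p 8.86e-12) and Rfc3 at 1.41 (adjusted p 1.72e-18), and Mcm10 fell by 0.53 (adjusted p 0.00314). Of 38 mitotic genes 34 rose and none fell, led by the cytokinesis gene Ect2 at 1.68 (adjusted p 2.31e-13) and Anln, whose product anillin acts in the same process, at 1.40 (adjusted p 1.17e-10). Of 11 G1 drivers 5 rose, led by Cdk6 at 1.76 (adjusted p 1.11e-21) and E2f3 at 1.36 (adjusted p 1.72e-22), and Ccnd2 fell by 0.48 (adjusted p 0.00761). Of 14 genes that restrain the cycle 6 rose and 3 fell. The counts of G1 drivers and of restraining genes that rose were near the share over all genes. The inhibitors of CDK4 and CDK6 Cdkn2b and Cdkn2a rose by 2.10 (adjusted p 4.38e-15) and 1.30 (adjusted p 4.68e-06), while Btg2 fell by 1.55 (adjusted p 1.3e-14) and Cdkn1c by 1.36 (adjusted p 2.9e-09). In stomach 14 replication genes rose and 4 fell, and 3 mitotic genes rose and 9 fell. There 35% of all genes were called higher and 23% lower, so the replication rises and the mitotic falls were near those shares. In the gastric adenocarcinomas Cdk6 rose by 3.88 (adjusted p 3.65e-20) and Cdkn2a by 4.35 (adjusted p 5.41e-10). In prostate 22 replication and 33 mitotic genes rose, and in uterus 18 and 35, where 20.9% and 16.4% of all genes were called higher. In liver 17 replication genes rose and 3 fell, and 14 mitotic genes rose, where 29.2% of all genes were called higher. In lung 2 and 3 replication genes and 6 and 3 mitotic genes were called higher and lower. The shares of all genes there were 23.4% and 19.7%.

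Each tumour type was then set against the mean of the 6 other types, which uses the same tumours again. A test of any difference between the 7 types called all 41 genes, where it called 95.1% of all genes, with adjusted p from 2.42e-23 to 3.85e-06 (Kif23). B-cell lymphoma stood highest. In it 37 of 41 genes were higher, all 18 G1/S and 19 of 23 G2/M genes, where 24.3% of all genes were called higher. Cdc6, which loads the helicase at origins together with Cdt1, had 8.27, 7.17 and 7.11 in the 3 lymphomas, against at most 6.82 in any other tumour (a uterine adenocarcinoma). It was higher by 2.65 (adjusted p 7.65e-09). Mki67 had 10.63, 10.02 and 9.99 in the lymphomas, against at most 9.57 in the other tumours, and was higher by 2.54 (adjusted p 0.000126). Mcm5 had 7.92, 7.77 and 8.41, also with no overlap, and was higher by 2.29 (adjusted p 0.000105). Top2a was higher by 2.36 (adjusted p 0.000347), Rrm2 by 2.07 (adjusted p 0.0025), Ccne1 by 2.07 (adjusted p 1.19e-05) and Ccnb2 by 1.72 (adjusted p 0.0157). The 4 that did not pass were Cdk1 at 1.45 (adjusted p 0.0562), Cdc20 at 1.07, Cenpf at 1.09 and Kif23 at 0.51. The lymphomas carried B cell markers at 8.06 ± 0.25 and T and NK cell markers at 8.40 ± 0.77 (SD, n = 3), and all 11 epithelial markers were lower in them. Of the other genes 35 of 36 replication and 32 of 37 mitotic genes were higher, led by Mcm10 at 2.52 and Cdca5 at 2.5.

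Uterine adenocarcinomas had 29 genes higher, 9 G1/S and 20 G2/M, where 17.3% of all genes were called higher, led by Bub1 at 1.61 (adjusted p 0.000326), Ube2c at 1.49 (adjusted p 0.0034) and Cenpe at 1.43 (adjusted p 0.000111). Squamous cell carcinomas of the skin had 25 higher, 7 G1/S and 18 G2/M, where 19.2% were called higher, led by Cdc20, the activator of the anaphase-promoting complex, at 1.76 (adjusted p 9.86e-05). Mki67 was higher by 0.92 (adjusted p 0.0359) in uterine and by 1.25 (adjusted p 0.0102) in skin tumours. Without single skin tumours the count in skin was 14 at fewest. Gastric adenocarcinomas lay in the middle, with 2 genes higher, Kif23 at 0.65 (adjusted p 0.0179) and E2f1 at 0.40 (adjusted p 0.0108), where 23.8% were called higher. In them 3 genes were lower, Mcm5 at -1.17 (adjusted p 0.000481), Ccne1 at -0.70 (adjusted p 0.00788) and Mybl2, which encodes B-MYB, at -0.27 (adjusted p 0.0138), where 24.1% were called lower.

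Bronchial papillary adenomas had 39 genes lower, all but Bub1b at -0.37 (adjusted p 0.153) and Kif23 at -0.33 (adjusted p 0.171), where 34.1% of all genes were called lower. Rrm2 led, with 3.24 at lowest, 5.05 at the median and 6.92 at highest in the adenomas, and a difference of -2.69 (adjusted p 2.37e-11). Top2a had -2.40 (adjusted p 1.86e-10), Birc5 -2.33 (adjusted p 1.37e-08), Mki67 -1.64 (adjusted p 2.11e-06) and Mcm5 -1.40 (adjusted p 4.88e-06). Hepatocellular carcinomas had 37 lower, 15 of 18 G1/S and 22 of 23 G2/M genes, where 41.3% were called lower. Top2a led there at -2.38 (adjusted p 2.68e-10), with Bub1b at -2.33 (adjusted p 1.53e-13) and Bub1 at -2.28 (adjusted p 2.03e-09). Their Rrm2 was lower by 0.73 (adjusted p 0.0349), a call lost without carcinoma 8 (adjusted p 0.0677), and Ccne1, E2f1, Gins1 and Nek2 did not pass. The 2 types thus shared low levels of most genes of both phases. Rrm2, called lower in both, stood at 6.64 ± 0.95 in hepatocellular carcinomas (n = 13) and at 4.97 ± 1.10 in bronchial adenomas (SD, n = 14). That difference was not tested. Prostatic adenocarcinomas had 14 genes lower, 7 of each phase, where 19.6% were called lower, led by Ube2c at -0.96 (adjusted p 0.0402), Bub1 at -0.87 (adjusted p 0.0317) and Nek2 at -0.85 (adjusted p 0.0159). Without prostatic adenocarcinoma 10 the count was 5, and Ube2c had -0.42 (adjusted p 0.315). Of the 7 types, lymphoma had the highest mean for 37 of 41 genes, bronchial adenoma the lowest for 29 and hepatocellular carcinoma the lowest for 11.

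**Figure D4:**
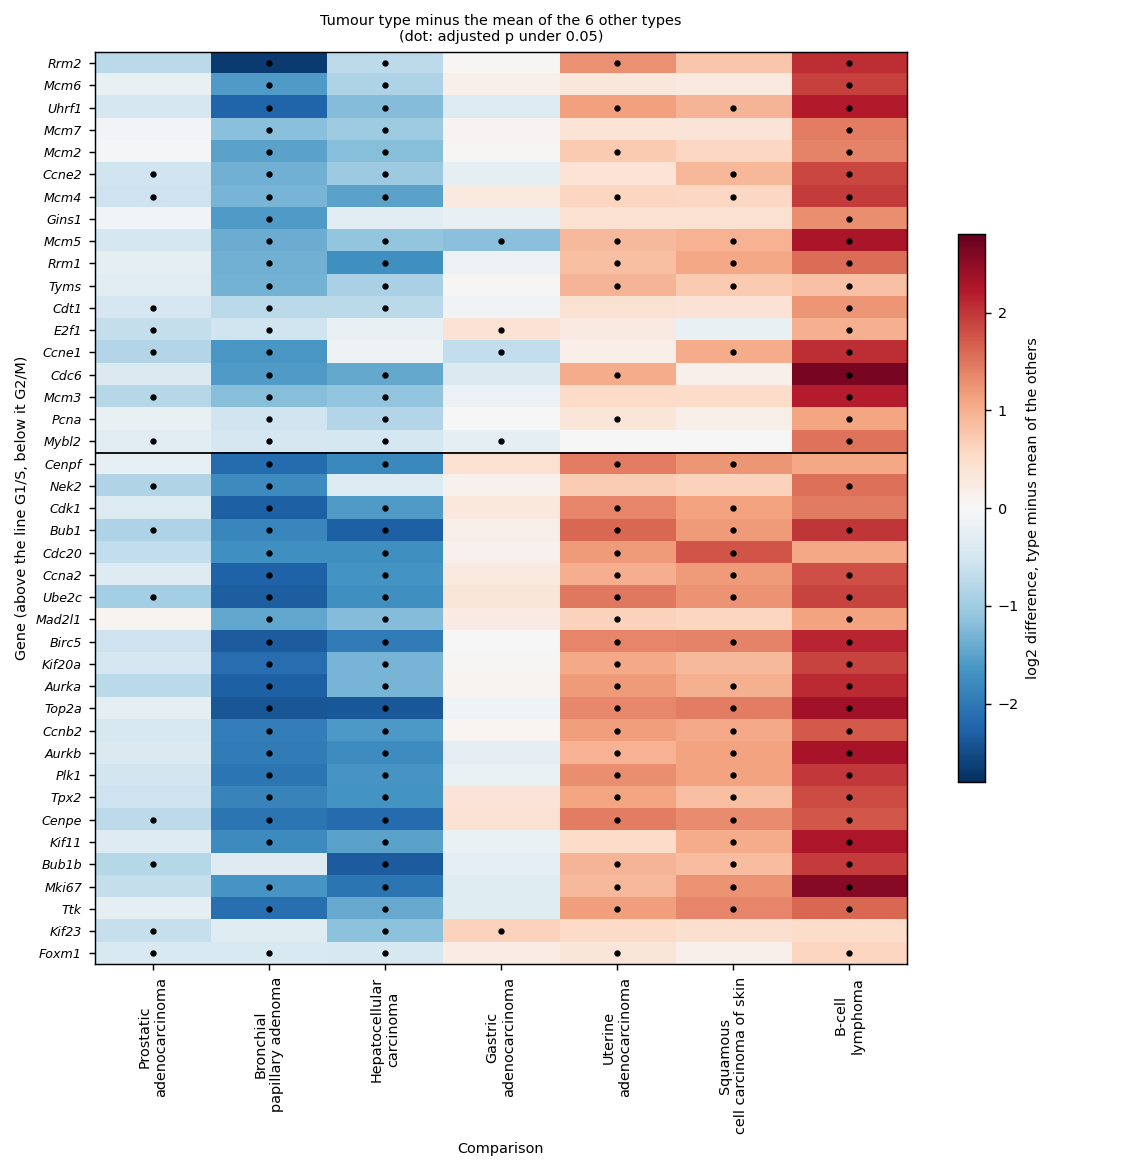
Log2 difference between each tumour type and the mean of the 6 other types for the 41 genes, red for higher and blue for lower, with dots at an adjusted p under 0.05. The lymphoma column is red for all 41 genes, and the columns of bronchial adenoma and hepatocellular carcinoma are blue.

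Tumours of a type differed among themselves, more in the G2/M than in the G1/S genes in 6 of the 7 types. The median SD over the G2/M genes was 1.03 in gastric and 0.96 in prostatic adenocarcinoma, 0.95 in hepatocellular carcinoma, 0.77 in uterine adenocarcinoma, 0.76 in bronchial adenoma, 0.44 in skin carcinoma and 0.26 in lymphoma. The G1/S genes had 0.69, 0.58, 0.78, 0.54, 0.42, 0.30 and 0.30 in the same order of types. Without prostatic adenocarcinoma 10 the prostatic values were 0.48 for the G2/M and 0.3 for the G1/S genes. Over all genes above the array median in 3 tumours the median SD, in the same order, was 0.42, 0.32, 0.47, 0.40, 0.40, 0.38 and 0.26. Gastric adenocarcinomas ran from 4.81 to 7.82 in their G2/M mean. Hepatocellular carcinomas ran from 4.07 to 7.01, and the highest, number 1, stood apart from the next at 5.78. That tumour is one of those that carried lung markers, which were between 2.89 and 4.03 in 11 of the 13; the part of such tissue in the level was not tested.

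The genes varied together across tumours. After the mean of its type was taken from each of the 66 tumours, pairs of G2/M genes had a median correlation of 0.855 (253 pairs, 0.351 to 0.960), pairs of G1/S genes 0.581 (0.0657 to 0.919) and mixed pairs 0.629 (414 pairs). The median over all 13456 genes with the G2/M mean was 0.00477. These are descriptions over tumours that share arrays and processing. Closest to the mean of the other G2/M genes were Ccna2 at 0.965, Ccnb2 at 0.959 and Plk1 at 0.953, and farthest were Kif23 at 0.550 and Foxm1 at 0.553. Of the G1/S genes Uhrf1 came closest at 0.857, followed by Mcm5 at 0.799, with Ccne1 at 0.530 and Mybl2 at 0.335. Ccnb2, Mcm5 and Ccne1 are among the genes whose promoters are printed above. Kif23, with CHR and CCAAT letters, had 0.550, and Birc5, with none of the searched letters, had 0.951. A relation of promoter letters to these correlations was not tested. Outside all lists the genes most like the G2/M mean were Cep55 at 0.921, Kif20b at 0.917, Shcbp1 at 0.916, Spag5 at 0.911 and Ckap2 at 0.894. Among regulators Rbl1 had 0.689, Skp2, of the ubiquitin ligase for p27, had 0.684, and Rbl2, the retinoblastoma relative of resting cells, had -0.469.

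**Figure D5:**
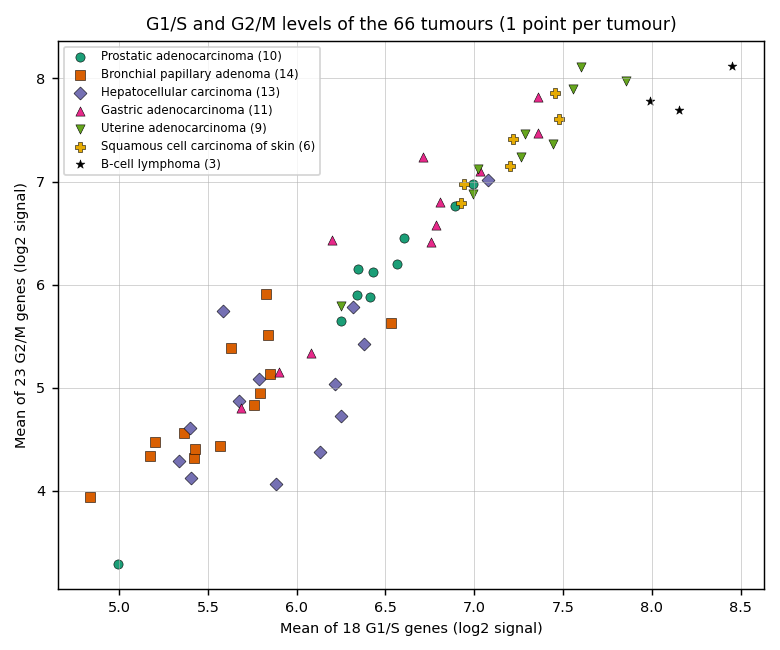
Mean log2 signal of the 18 G1/S genes (horizontal) against that of the 23 G2/M genes (vertical), 1 point for each of the 66 tumours, with a marker for each type. The points run along a diagonal from prostatic adenocarcinoma 10 at 4.99 and 3.29 to the lymphomas at the upper right, with means of 8.20 and 7.86.

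Prom1 itself and Mki67 were compared across tumours within each of 6 types, since the study is about Prom1. No type passed after adjustment over the 6. The smallest p was in the 9 uterine adenocarcinomas, with Pearson's r -0.77 (exact permutation p 0.0092, adjusted 0.0552) and Spearman's correlation -0.80 (exact permutation p 0.0138, adjusted 0.0830), and without the 2 tumours farthest from the median r was -0.65 (exact permutation p 0.0972). In prostatic adenocarcinomas r was 0.48 (permutation p 0.138) and Spearman's correlation 0.04 (permutation p 0.919). Without the 2 farthest tumours that r was -0.68 (exact permutation p 0.0459), so the relation rests on those tumours. The other types had r of -0.42 in gastric, -0.22 in hepatocellular, -0.08 in bronchial and 0.01 in skin tumours, with permutation p from 0.201 to 0.986.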

How the data were processed

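Total RNA was hybridised to Affymetrix arrays, and the authors deposited log2 probe set values made with RMA and Partek 6.6, per the submitters' processing notes; the settings are not given in the sources used here. Of 45141 probe sets, 28898 were annotated to 1 gene, 551 to several and 15692 to none. Each gene was represented by its single-gene probe set with the highest mean over 117 arrays, leaving 17097 genes. Genes above the array median in at least 3 arrays were tested: 14081 among sorted cells, 14663 with tumours and sorted cells together and 13456 among tumours. All 41 measured cell division genes passed each filter. Group means were fitted with limma 3.58.1 (lmFit and eBayes, R 4.3.3), two-sided, with Benjamini-Hochberg adjustment over all genes tested and a threshold of 0.05. All groups of a fit shared a common spread for each gene, although their spreads differed. The SD of the G2/M mean was 0.07 in Prom1-negative prostate and 1.24 in Prom1-negative stomach. The fits were tested on simulated data. Motifs and figures were made in Python 3.11 with matplotlib 3.10.9. The members, lists and tests were chosen with earlier results of these data known. The text names Mki67, Top2a, Ccnb2, Ccne1, Mcm5 and Rrm2, the 3 largest calls each way, and those against the rest. Array number and signal over background limit precision. Samples of positive and negative groups that share a title number deviated together (r over 0.1) in 7 of 19 pairs, from -0.34 to 0.59, so the numbers were not taken to pair them. Positive and negative samples of neighbouring codes did so in 10 of 13 pairs, from -0.09 to 0.49, so the fractions may not be independent. The main fits take no account of this. Counts with a random block of neighbouring codes are given below for the 3 results that moved. In the 6 others, the liver sort and the difference between tissues among them, the count was unchanged or stayed within 1.5 times.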

Additional observations from a re-analysis of the deposited data

Results flagged for a closer look

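Tests for a sample standing apart were made on 70 combinations of a gene or mean and a group, which share samples, and 11 had one; by its 95% critical value such a test passes by chance in about 1 in 20. The value given is the gap to the nearest sample as a share of the group's range. Prostatic adenocarcinoma 10 accounted for 6. Its G1/S mean was 4.99, against 6.25 to 6.99 in the other 9 (0.628), and its G2/M mean 3.29, against 5.65 to 6.97 (0.639). It had Mki67 at 3.08, against 7.52 to 8.61 (0.804), and Top2a at 4.95, against 7.64 to 8.92 (0.676). Its Mcm5 was 3.17, against 5.43 to 6.62 (0.656), and its Rrm2 3.71, against 6.27 to 7.79 (0.627). Uterine adenocarcinoma 9 had Rrm2 at 6.97, against 8.10 to 9.04 (0.547).

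Among sorted cells, Prom1-positive liver sample 2 had a G2/M mean of 3.79, against 3.27 to 3.32 (0.895), and sample 3 had Mcm5 at 3.41, against 4.22 to 4.24 (0.973). Prom1-positive uterus sample 4 had Mcm5 at 7.16, against 5.88 to 6.02 (0.893). Prom1-negative intestine sample 5 had a G1/S mean of 6.05, against 7.17 to 7.52 (0.763).

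Effects that differed between tissues in an interaction test were those of the sort for 15 of the 41 genes, with adjusted p of 0.00197 for Mki67 and 0.0117 for Top2a. The tumour effect differed between organs for 40 genes, with adjusted p of 1.67e-09 for Mki67, 4.86e-06 for Top2a, 0.00495 for Ccne1, 4.99e-05 for Mcm5 and 0.000663 for Rrm2.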

How the results depend on the processing

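Of 583 comparisons of a result with its value under an alternative, 510 kept direction and side of the threshold or stayed within 1.5 times. A count of 0 that stayed 0 was taken as kept. Some comparisons add nothing. The mean of all probe sets gave Prom1 and Mki67 correlations identical to the main ones, and the stomach sample of lowest upper quartile was left out more than once. The cause of the other changes was not tested, except where fewer samples or genes entered by construction. Numbers are cell division genes called. The share of all genes called under each alternative is not given, so these counts show change from the main result only. For the sort over 6 tissues (1 lower), using the mean of all probe sets gave 1 higher and none lower. No filter gave 0, repeated quantile normalization 2 and a random block of neighbouring codes 2. Dropping the low arrays, whose upper quartile was under 6, left 1 Prom1-positive stomach sample, so its count for this mean is not given. For the sort in uterus (1 higher), mean probe sets gave 2, repeated quantile 0, leaving out low arrays 4, neighbouring codes 4 and uterus samples alone 12. For the sort in prostate (0), leaving out low arrays gave 2, neighbouring codes 2 and prostate samples alone 4, all lower. The sort in stomach gave 1 lower with repeated quantile normalization. With a replicate block by title number, liver had 12 genes lower, uterus 0 and the difference between tissues 2; the block was not run for differences between normal tissues, because it lies within a tissue, and it changed no other call count by over 1.5 times. For tumours in stomach (4 higher, 3 lower) the balance turned with mean probe sets (8: 3 higher, 5 lower) and repeated quantile (9: 3 and 6). It also turned without the negative sample of lowest upper quartile (10: 3 and 7) and without Prom1-positive stomach replicate 2 (8: 3 and 5). The count without low arrays is not given, because it rests on that lone positive stomach sample. The repeats that leave out a tumour for its marker or cell division levels, or that stomach sample, were added after seeing the data. In lung, positive cells alone gave 2 and lung samples alone 11. In uterus, positive cells alone gave 17. In liver, negative cells alone gave 13. Prostatic adenocarcinoma against the other types gave 5 without tumour 10. The Prom1 and Mki67 correlation in it was -0.68 without the 2 farthest tumours. Leaving out single samples gave 0 to 4 for the sort over 6 tissues, 0 to 1 in stomach and in uterus, 14 to 21 in liver, 8 to 24 for the difference between tissues, 6 to 10 for tumours in stomach and 14 to 25 for skin carcinoma. The 8 came without Prom1-positive liver replicate 3, the 24 without that stomach sample, and skin counts of 15, 16 and 14 without tumours 1, 2 and 5. For Mcm5 in the liver sort, adjusted p was 0.0826 with mean probe sets, 0.102 with repeated quantile, 0.0669 with the replicate block and 0.0754 without low arrays. The mean takes in a second Mcm5 probe set that was above the array median in 0 of the 117 arrays. Repeated quantile normalization moved the median of all genes by 0.18 in the liver sort, -0.13 in the stomach sort and -0.17 in gastric tumours. It moved the share of calls that were higher to 48.7% against 20.3% in the liver sort, 60.2% against 72% in the stomach sort, 49.1% against 37.1% in the mean sort, 45.9% against 34.9% in the prostate sort, 50.7% against 61.9% in liver tumours, 47.5% against 60.3% in gastric tumours and 44.5% against 58.1% in uterine tumours against other types. In the liver sort 17 of the genes were still lower under it.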

Other observations

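Some probe sets were dim. That of Ccne2 averaged 3.40 over the 117 arrays and was above the array median in 41 of them. Mybl2 averaged 3.41 over the 117 arrays and was above the array median in 22 of them, Foxm1 averaged 3.61 and was above it in 38, and Kif23 averaged 3.14 and was above it in 29. A second probe set of Mybl2 correlated with the mean of the G2/M genes at 0.558 over the 66 tumours, and a second one of Foxm1 at 0.742, against 0.335 and 0.553 for those used.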
